A study of Homo sapiens with 4 samples.

Results

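The genes described here are 9 genes whose products make, process or destroy the let-7 microRNA and its precursors: DROSHA, DGCR8, XPO5, DICER1, TARBP2, KHSRP, ZCCHC11, ZCCHC6 and DIS3L2. They were taken by gene symbol from the deposited count tables, which list 19192 genes with 1 transcript each, and all 9 were found in all 4 tables. Ribosome footprints and randomly fragmented RNA were sequenced from 2 lines made from SW480, a widely used cell line of a human colorectal adenocarcinoma. The knockout-labelled line was labelled as overexpressing LIN28B and lacking both copies of IMP1 (genotype LIN28B OE+IMP1-/-), and the OE-labelled line as overexpressing LIN28B alone (LIN28B OE). By label, LIN28B overexpression was thus common to both lines, no unmodified SW480 cells were among the samples used here, and the labels name neither the promoter that drives LIN28B nor whether either line was 1 clone. Each line gave 1 footprint library and 1 RNA library, each from 3 pooled culture plates.

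The let-7 microRNAs are cut from long primary transcripts in the nucleus by DROSHA with its partner DGCR8, carried to the cytoplasm by the export receptor XPO5, and cut again by DICER1 with its partner TARBP2. KHSRP binds the terminal loop of let-7 precursors and promotes both cuts. LIN28 proteins bind the same loop, block processing, and in the cytoplasm can recruit the terminal uridylyl transferases ZCCHC11 (TUT4) or ZCCHC6 (TUT7), which add a uridine tail that the exonuclease DIS3L2 recognises and degrades. IMP1, the product of IGF2BP1, is an mRNA-binding protein with roles in mRNA decay, transport and translation, and let-7 is known to target LIN28B, IGF2BP1 and DICER1 mRNAs.

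The substrate of these proteins is shown first, because the rest of the pathway is defined by it. The RefSeq table (GRCh38.p14) holds 9 distinct mature let-7 family strands from the 5′ arm, which share the seed GAGGUAG at bases 2 to 8, in capitals here, and differ mostly after it. The 9 are given with the seed in capitals, 5′ to 3′.
hsa-let-7a-5p: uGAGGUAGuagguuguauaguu
hsa-let-7b-5p: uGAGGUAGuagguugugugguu
hsa-let-7c-5p: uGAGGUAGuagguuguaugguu
hsa-let-7d-5p: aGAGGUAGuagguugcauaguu
hsa-let-7e-5p: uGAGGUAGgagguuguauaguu
hsa-let-7f-5p: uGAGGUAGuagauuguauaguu
hsa-let-7g-5p: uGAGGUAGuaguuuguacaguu
hsa-let-7i-5p: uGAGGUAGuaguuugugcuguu
hsa-miR-98-5p: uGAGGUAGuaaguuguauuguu
The mature microRNAs themselves were not measured: the count tables hold mRNAs.

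Between the 2 arms of the hairpin lies the loop that LIN28 proteins and KHSRP bind, and the letters GGAG there are the known contact of the LIN28 zinc knuckles. Of 11 let-7 family hairpins with both arms listed, 8 hold GGAG between the arms on the RNA strand (72.7%), against 60 of all 739 such human hairpins (8.12%). The letters GGGU, part of the sequence that KHSRP prefers, are in 5 of the 11 (45.5%) and in 58 of the 739 (7.85%). The regions between the let-7 arms are 23 to 36 nt long and those of other hairpins differ in length, so the shares are descriptions of letters and not of binding. The contrast is shown by 3 hairpins, with GGAG in capitals where it is present: let-7a-1 (chr9:94175957-94176036, plus strand) and let-7g (chr3:52268278-52268361, minus strand) hold it, and let-7a-3 (chr22:46112749-46112822, plus strand), which gives the same mature strand as let-7a-1, does not.
let-7a-1: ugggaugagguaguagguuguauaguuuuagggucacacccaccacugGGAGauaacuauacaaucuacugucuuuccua
let-7g: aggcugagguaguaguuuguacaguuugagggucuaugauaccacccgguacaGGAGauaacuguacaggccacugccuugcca
let-7a-3: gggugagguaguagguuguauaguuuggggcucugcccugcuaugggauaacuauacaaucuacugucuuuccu

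The labels were checked before any comparison. IGF2BP1 had 821 footprint and 1974 RNA counts in the knockout-labelled libraries, against 332 and 840 in the OE-labelled ones, so it was 2.04-fold and 1.73-fold higher where the label gives its knockout. LIN28B had 46 footprint and 303 RNA counts in the knockout-labelled libraries, against 190 and 1205 in the OE-labelled ones, 4.96-fold and 5.41-fold lower, although the labels give its overexpression to both lines. Directions are given by label for this reason: the lines also differed in LIN28B, and loss of IMP1 was not seen in these counts. Whether labels were exchanged between the lines, which would turn the sign of every ratio, or an edited IGF2BP1 transcript still gave reads was not tested. Total counts were 3260262 and 6813372 in the knockout-labelled footprint and RNA libraries and 2732760 and 5429224 in the OE-labelled ones. Of 10 colorectal epithelial markers 7 reached the minimum count used here. Summed levels of the 10 were 5160 CPM (counts scaled to a common library size) in knockout-labelled and 10026 CPM in OE-labelled RNA. KRT8 and KRT18 made up most of these sums. CDH1 ran the other way (614 and 243 RNA counts), and KRT20, CDX1 and CDH17 were at 0 in RNA. None of 6 blood cell markers reached the minimum (0.734 and 0.921 CPM), with PTPRC at 0. Of 7 fibroblast, endothelial and muscle markers (summed 48.9 and 28.9 CPM) 1 reached it, DES, with 156 and 101 RNA counts. Below the minimum in RNA, MYH11 had 68 counts in the knockout-labelled and 28 in the OE-labelled library. COL1A1 had 55 and 2 RNA counts and 57 and 0 footprint counts in the same order, and COL1A2 was at 0. In footprints PECAM1 went the other way (1 and 4 counts). The part of these marker differences in the results was not tested. Per the labels 1 of the 4 libraries, OE-labelled RNA, carries the cell line name SW840 in 1 field and SW480 in another.

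With 1 library per line and assay there was no replicate spread, so no test between the lines was possible and none of the differences has a p-value. CPM values of single genes were scaled with trimmed-mean (TMM) factors within each assay. The marker sums above and footprints over RNA within a line took CPM from total counts. The 95% intervals given in parentheses or after a value cover counting error only, and are too narrow if PCR copies were counted. A gene counts as measured with a mean of at least 50 counts over the 2 libraries of an assay. A ratio always has the knockout-labelled library on top and is given on the log2 scale with 0.5 added to each count, unless a fold is given.

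All 9 genes were expressed in both lines. Levels of different genes were compared per kilobase of coding sequence, scaled to the same sum in every library (coding TPM). XPO5 exceeded every other gene of the 9 in footprints, at 64.9 coding TPM in the knockout-labelled and 53.9 in the OE-labelled library, followed in both by KHSRP (27.2 and 34.2) and DICER1 (19.2 and 17.9), none of these neighbours having overlapping intervals. Below them in knockout-labelled footprints came TARBP2 (13.02), ZCCHC6 (9.36), DROSHA (7.63), DIS3L2 (7.29), DGCR8 (5.21) and ZCCHC11 (4.54), and each of these overlapped the next. In OE-labelled footprints TARBP2 (10.4), DIS3L2 (10.4), DROSHA (9.90) and ZCCHC6 (8.37) each overlapped the next, as did DGCR8 (4.08) and ZCCHC11 (3.18), while ZCCHC6 and DGCR8 did not overlap.

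The order was different in RNA. DICER1, KHSRP and XPO5 again led, at 39.9, 35.4 and 27.2 coding TPM in the knockout-labelled library and at 20.9, 27.0 and 14.9 in the OE-labelled one, where KHSRP stood first. Coding TPM is scaled differently from the TMM ratios and gives other differences between the lines, so it ranks genes within a library and is not compared between lines. TARBP2 came next in both RNA libraries (14.2 and 8.29) and DIS3L2 last in both (1.74 and 2.84). Between them lay DROSHA (8.16 and 5.98), DGCR8 (7.90 and 5.04), ZCCHC11 (4.48 and 3.59) and ZCCHC6 (4.29 and 4.12). In the knockout-labelled library the overlapping neighbours were DROSHA with DGCR8 and ZCCHC11 with ZCCHC6, and in the OE-labelled one every neighbour from DROSHA down to DIS3L2 overlapped the next. The highest member exceeded the lowest by 14.3-fold in knockout-labelled and 17.0-fold in OE-labelled footprints, and by 22.9-fold and 9.53-fold in RNA. The RNA order depends on the length used. Per kilobase of the whole transcript, KHSRP (361 counts) stood above DICER1 (320) in knockout-labelled RNA. In OE-labelled RNA, DGCR8 (36.1) then stood below DIS3L2 (39.5).

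**Figure D1:**
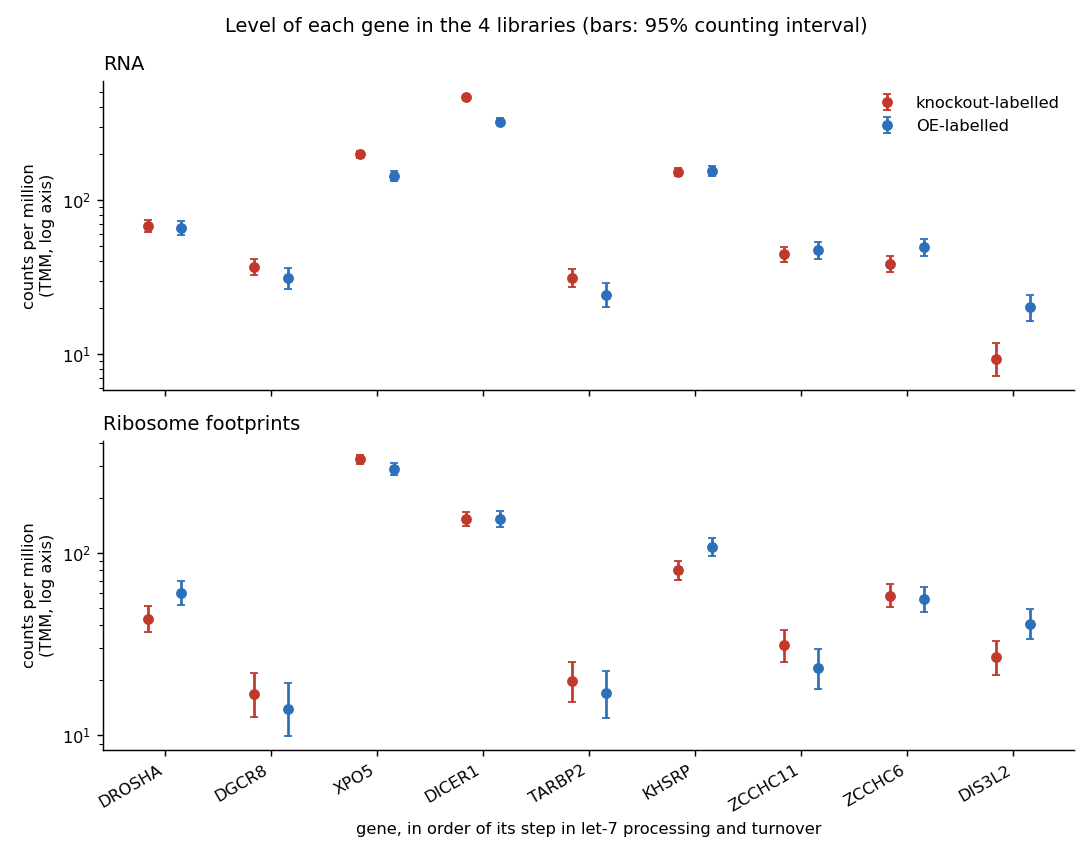
Levels of the 9 genes in CPM on a log axis in the 4 libraries, with footprints and RNA in separate panels and the knockout-labelled library beside the OE-labelled one; bars are 95% intervals of counting error. XPO5 is highest in footprints (325 and 288 CPM) and DICER1 in RNA (464 and 323 CPM), and DIS3L2 is lowest in RNA (9.30 and 20.1 CPM).

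The pairs compared per kilobase of coding sequence were DICER1 with TARBP2, DROSHA with DGCR8, ZCCHC6 with ZCCHC11, and XPO5 with DICER1. Only DICER1 with TARBP2 and DROSHA with DGCR8 are partners of 1 complex as described above. Protein amounts were not measured. DICER1 exceeded its partner TARBP2 by 1.46-fold in knockout-labelled and 1.71-fold in OE-labelled footprints, and by 2.80-fold and 2.52-fold in RNA. DROSHA exceeded DGCR8 by 1.45-fold in knockout-labelled and 2.40-fold in OE-labelled footprints. In RNA the ratios of 1.03 and 1.19 had intervals that include equality (0.888 to 1.20 and 0.984 to 1.43). Per kilobase of the whole transcript, DROSHA had 90.7 and 64.8 RNA counts in the knockout-labelled and OE-labelled libraries, and DGCR8 58.0 and 36.1. The near equality in RNA thus depends on the length used. The difference of the DROSHA to DGCR8 footprint ratio between the lines was -0.72 on the log2 scale (-1.40 to -0.05), an interval that only just misses 0 and rests on DGCR8 footprints under the count minimum (55 and 38 counts). For the other 3 pairs in footprints, and for all 4 in RNA, the interval of that difference included 0. Of the tailing enzymes, ZCCHC6 carried 2.06-fold and 2.63-fold more footprints than ZCCHC11 in the knockout-labelled and OE-labelled lines, while their RNA levels were within 1.15-fold of each other in both.

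Footprints relative to RNA within a line were low for DICER1 and spread on both sides of the typical gene for the others. The measure is the log2 ratio of footprint CPM to RNA CPM, less the median of that ratio over the 7260 genes measured in both assays, so 0 is the median gene. Of the 8 genes measured, 5 lay below it in the knockout-labelled line (background 50.0%) and 6 in the OE-labelled line (background 50.0%, or 4 of 8). DICER1 stood lowest of the 8 in both lines. It was at -1.83 (-1.97 to -1.70) in the knockout-labelled and -1.29 (-1.44 to -1.13) in the OE-labelled line. That is 3.56-fold and 2.44-fold fewer footprints per RNA count than the median gene, and the 6.02 and 12.2 percentiles of the 7260 genes. In the OE-labelled line its interval overlapped that of ZCCHC11 (-1.24, -1.63 to -0.84). Its footprints were low relative to its RNA, while in footprint level DICER1 came behind XPO5 and KHSRP alone among the 9 genes. That level was at the 75.2 and 75.1 percentiles of all listed genes with a coding length, including genes without a footprint count.

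Below the median gene in both lines were also KHSRP, TARBP2, DROSHA and ZCCHC11. KHSRP stood at -1.15 and -0.73 in the knockout-labelled and OE-labelled lines, TARBP2 at -0.89 and -0.73, DROSHA at -0.87 and -0.34, and ZCCHC11 at -0.75 and -1.24. DGCR8, at -1.37 and -1.36, was below the count minimum in footprints (55 and 38 counts) and is not among the 8. XPO5 lay above the median gene in both lines (0.48 and 0.79), as did DIS3L2 (1.29 and 0.81, the 95.1 and 84.0 percentiles), and ZCCHC6 lay at 0.35 and -0.04, the second with an interval across 0 (-0.33 to 0.25).

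These ratios were related to the coding share of the listed transcript. The part of the transcript that was counted is not given in the sources used here, so a cause of that relation was not tested. The length adjustment below takes RNA as counted over the whole transcript and footprints as counted over coding sequence. Across 7252 genes, which share the same libraries, the ratio correlated with the coding share of the listed transcript at Pearson r of 0.27 in the knockout-labelled and 0.30 in the OE-labelled line (Spearman rho 0.27 and 0.30), as a description. The listed DIS3L2 transcript has no annotated UTR and 99.9% coding sequence, and the 61 measured genes with no UTR had medians of 0.83 and 0.81, so the high place of DIS3L2 cannot be told apart from its transcript model. With the ratio adjusted to coding and transcript length, a step added after the data were seen, DIS3L2 stood at the 62.5 and 42.8 percentiles, DICER1 (56.1% coding) at the 4.39 and 8.56 percentiles, and XPO5 at the 52.1 and 65.9 percentiles. On that scale ZCCHC11 stood at the 9.01 and 3.18 percentiles and was lowest in the OE-labelled line (-1.99 against -1.43 for DICER1), and ZCCHC6 stood at the 35.7 and 21.7 percentiles. DROSHA (9.26 and 16.6), TARBP2 (15.4 and 16.8) and KHSRP (7.33 and 11.7) had lower percentiles than without the adjustment, and 6 of 8 genes lay below the median gene in the knockout-labelled and 7 of 8 in the OE-labelled line.

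**Figure D2:**
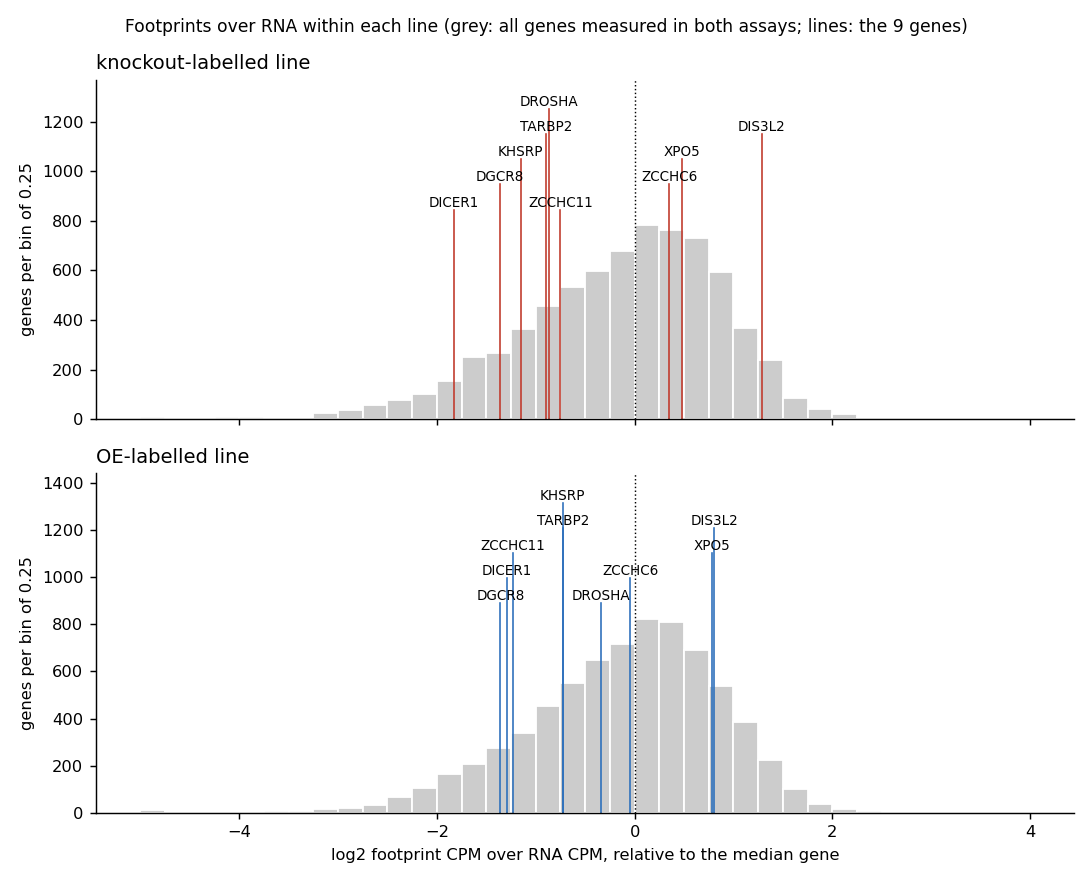
Footprints over RNA within each line on the log2 scale relative to the median gene (0), with the 9 genes drawn over the distribution of all 7260 measured genes for the knockout-labelled and the OE-labelled line; DGCR8 is under the count minimum. DICER1 lies lowest of the 8 measured genes among them (-1.83 and -1.29) and DIS3L2 highest (1.29 and 0.81).

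Between the lines, mRNA of most of these genes differed by less than 1.5-fold. None of the 9 was at least 1.5-fold higher in the knockout-labelled library (background 10.5% of 9855 genes) and 1 was at least 1.5-fold lower (background 10.5%), and their median ratio was 0.04 against 0.01 for all genes. In bulk RNA, fewer cells that express a gene and less of its RNA per cell cannot be told apart. Intervals lay off 0 for 5 of the 9, against 55.7% of all genes, so a shift beyond counting error was as common among all genes. With total counts in place of TMM factors, the median of all genes moved up by 0.12, and 1493 genes were higher and 746 lower in place of 1036 and 1038.

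The nuclear step, DROSHA and DGCR8, is described first. DROSHA is the ribonuclease that cuts primary microRNA transcripts (transcript ENST00000511367, chromosome 5, 31400497 to 31532061, minus strand, GRCh38), and it had 143 footprint and 481 RNA counts in the knockout-labelled libraries, against 164 and 344 in the OE-labelled ones. Its RNA was at 67.8 CPM in the knockout-labelled and 66.0 CPM in the OE-labelled library (ratio 0.04, -0.16 to 0.24), while its footprints were at 43.5 and 60.5 CPM, 1.39-fold lower (ratio -0.47, -0.81 to -0.14). The RNA levels were thus within counting error of each other and the footprint levels were not. DGCR8, the double-stranded RNA-binding partner (ENST00000351989, chromosome 22, 20080232 to 20111871, plus strand), had 262 RNA counts in the knockout-labelled and 163 in the OE-labelled library (36.9 and 31.3 CPM; ratio 0.24, -0.05 to 0.53), and its footprint ratio of 0.25 (-0.37 to 0.89) was under the count minimum. Exons of an antisense gene cover 11.6% of the DGCR8 transcript, and strand use in the counting is not given in the sources used here.

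XPO5, the receptor that carries hairpin precursors through the nuclear pore, was higher in the knockout-labelled libraries in both assays. XPO5 (ENST00000265351, chromosome 6, 43522330 to 43576075, minus strand) had 1408 RNA counts in the knockout-labelled and 751 in the OE-labelled library, or 198 and 144 CPM, a 1.38-fold higher level (ratio 0.46, 0.33 to 0.59). Its footprints were at 325 and 288 CPM (1066 and 782 counts; ratio 0.17, 0.04 to 0.31), a smaller difference than in RNA. Exons of POLR1C on the opposite strand cover 6.49% of the XPO5 transcript.

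The cytoplasmic step gave the largest positive mRNA ratio of the 9 genes. DICER1, the ribonuclease that cuts the precursor hairpin (ENST00000343455, chromosome 14, 95086228 to 95157422, minus strand), was at 464 CPM in the knockout-labelled and 323 CPM in the OE-labelled RNA library, 1.43-fold higher (ratio 0.52, 0.44 to 0.61; the 87.3 percentile of all genes). Its footprints were at 153 CPM in both lines (503 and 416 counts; ratio -0.003, -0.19 to 0.19). The mRNA difference was thus not matched in footprints, and the ratio of the ratios is given below. With total counts as the scaling the DICER1 mRNA ratio was 0.64, past 1.5-fold, and its footprint ratio was 0.02. TARBP2, the double-stranded RNA-binding partner of DICER1 (ENST00000266987, chromosome 12, 53500926 to 53506431, plus strand), was 1.29-fold higher in mRNA (223 and 127 counts; 31.4 and 24.4 CPM; ratio 0.37, 0.05 to 0.69). Its footprint counts of 65 and 46 gave a ratio of 0.22 (-0.34 to 0.80), so a difference was not detectable at this depth.

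KHSRP, which binds let-7 precursor loops and also destabilises mRNAs with AU-rich elements, differed by less than counting error in mRNA and was lower in footprints. KHSRP (ENST00000398148, chromosome 19, 6413348 to 6424794, minus strand) was at 152 CPM in the knockout-labelled and 154 CPM in the OE-labelled RNA library (1080 and 804 counts; ratio -0.02, -0.15 to 0.11). Its footprints were at 80.4 and 108 CPM (264 and 293 counts), 1.34-fold lower (ratio -0.43, -0.67 to -0.18). The mRNA sign turned to 0.10 with total counts.

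Of the tailing enzymes, neither passed 1.5-fold. ZCCHC11 (ENST00000257177, chromosome 1, 52423275 to 52552982, minus strand) had 316 RNA counts in the knockout-labelled and 247 in the OE-labelled library (44.5 and 47.4 CPM; ratio -0.09, -0.33 to 0.16, and 0.03 with total counts). Its footprints were at 31.1 and 23.2 CPM (102 and 63 counts; ratio 0.41, -0.05 to 0.90). ZCCHC6 (ENST00000375963, chromosome 9, 86287959 to 86354412, minus strand) was 1.28-fold lower in mRNA, at 38.8 and 49.5 CPM (275 and 258 counts; ratio -0.35, -0.60 to -0.10), with footprints of 58.1 and 55.7 CPM (191 and 151 counts; ratio 0.06, -0.25 to 0.38). In both paralogues the footprint ratio was thus above the mRNA ratio.

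DIS3L2, the exonuclease that degrades uridylated precursor let-7, was the 1 gene of the 9 past 1.5-fold, and it was lower in both assays. DIS3L2 (ENST00000409307, chromosome 2, 232014928 to 232336630, plus strand) had 66 RNA counts in the knockout-labelled and 105 in the OE-labelled library, or 9.30 and 20.1 CPM, 2.16-fold lower (ratio -1.11, -1.58 to -0.66; the 2.69 percentile of all genes). Its footprints were at 26.8 and 40.9 CPM (88 and 111 counts), 1.53-fold lower (ratio -0.61, -1.03 to -0.19). These are the lowest RNA counts of the 9 genes, and a minimum of 200 counts would leave the gene out. The listed transcript is a model without UTRs, and whether fragments from UTRs of other DIS3L2 transcripts were counted is not stated; antisense exons cover 1.92% of it.

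Over the footprints of the 8 measured genes, none was at least 1.5-fold higher (background 15.0% of 7323 genes) and 1, DIS3L2, was at least 1.5-fold lower (background 14.0%), with a median ratio of 0.03 against 0.02 for all genes. Intervals lay off 0 for 4 of the 8, against 57.3% of all genes. DIS3L2 was just past the fold in footprints and was not past it with upper-quartile scaling.

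**Figure D3:**
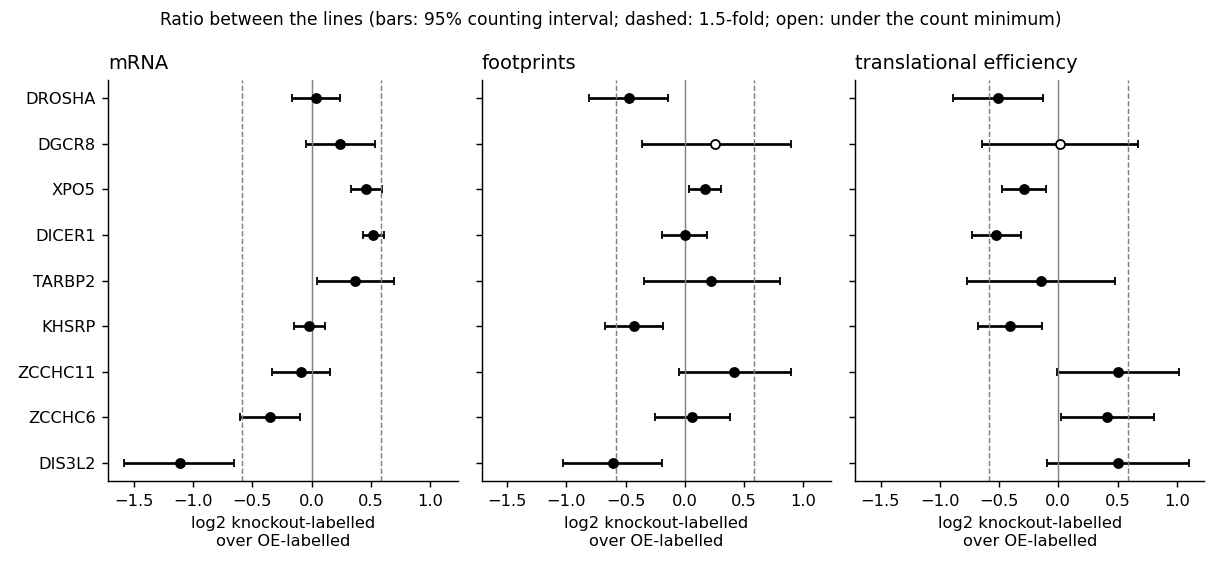
The log2 ratio of the knockout-labelled over the OE-labelled line for each of the 9 genes in mRNA, in footprints and in footprints over mRNA, with 95% intervals of counting error and lines at 0 and at 1.5-fold. DIS3L2 is past 1.5-fold in mRNA (-1.11) and footprints (-0.61), DICER1 has the highest mRNA ratio (0.52), and the third panel has DROSHA, XPO5, DICER1 and KHSRP below 0 and ZCCHC6 above it with intervals off 0.

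The footprint ratio over the mRNA ratio, called translational efficiency here, had an interval off 0 for 5 of the 8 measured genes, against 45.7% of all genes. It was below 0 with an interval off 0 for 4 genes: DICER1 (-0.52, -0.73 to -0.32), DROSHA (-0.51, -0.89 to -0.13), KHSRP (-0.41, -0.68 to -0.13) and XPO5 (-0.29, -0.48 to -0.11). ZCCHC6 was above 0, at 0.41 (0.02 to 0.81). The intervals of TARBP2 (-0.15, -0.77 to 0.48), ZCCHC11 (0.50, -0.01 to 1.02) and DIS3L2 (0.50, -0.097 to 1.099) reach across 0, as does that of DGCR8, which was under the count minimum (0.01, -0.64 to 0.67). None of the 8 was at least 1.5-fold higher (background 13.4% of 7260 genes) or at least 1.5-fold lower (background 12.9%). Total counts put DICER1 (-0.62) and DROSHA (-0.61) past 1.5-fold, and with them 760 genes were higher and 1200 lower in place of 972 and 939.

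Ratios of genes nearby lay on the same side of 0 as the gene's own ratio in some cases and not in others. Each gene was set beside the 40 nearest measured genes on its chromosome. The farthest of the 40 lay from 1.21 Mb away (TARBP2 mRNA) to 20.7 and 24.5 Mb away (DROSHA mRNA and footprints). Gene copy number was not measured. DICER1 lay 0.26 above a neighbour median of 0.26 in mRNA, with 33 of 40 neighbours below it, and in footprints it lay 0.22 below a neighbour median of 0.22. For XPO5 the neighbour medians were 0.12 in mRNA, with 34 of 40 below it, and 0.39 in footprints, so that relative to its neighbours its footprint ratio was -0.22. DIS3L2 stood apart from its neighbours in mRNA, with a neighbour median of 0.005 and 1 of 40 below it. KHSRP and DROSHA footprints stood 0.60 and 0.46 below the medians of their neighbours, with 5 and 7 of 40 below them, while TARBP2 mRNA lay 0.63 above a neighbour median of -0.27, past 1.5-fold on that scale, with 33 of 40 below it.

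**Figure D4:**
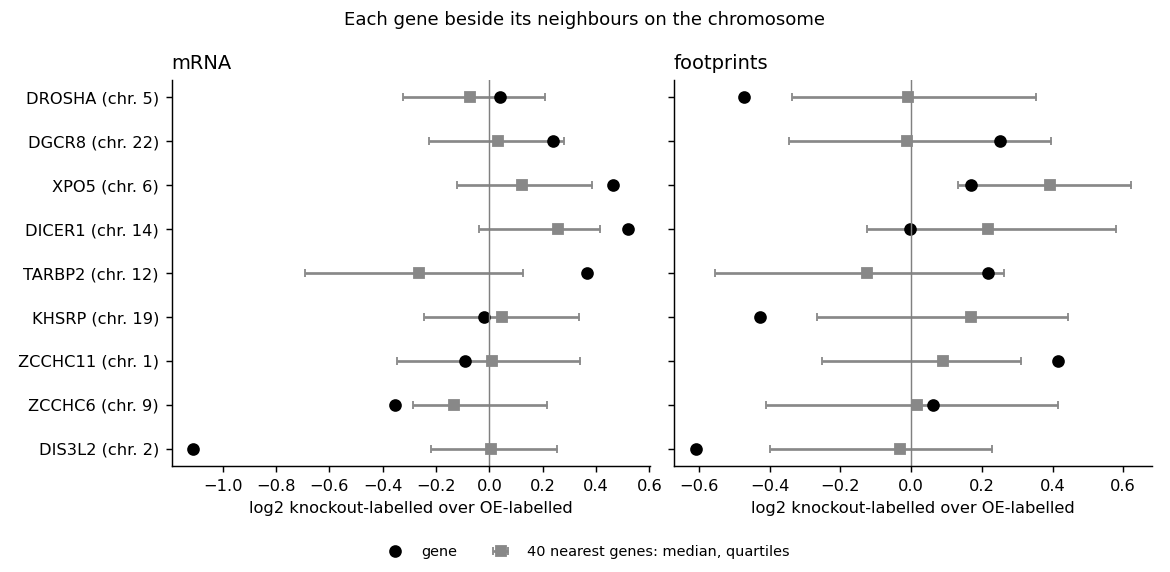
The log2 ratio of each gene (black point) beside the median (square) and quartiles (bar) of the ratios of the 40 nearest measured genes on its chromosome, for mRNA and for footprints. DIS3L2 mRNA has 1 of 40 neighbours below it, and the neighbours of DICER1 (median 0.26 in mRNA) and XPO5 (median 0.39 in footprints) lie above 0 themselves.

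DICER1 mRNA is a known let-7 target through sites in its coding sequence, and the listed transcripts were searched for the 7 letters CTACCTC, the reverse complement of the let-7 seed, on the transcript strand only. DICER1 holds 4 in its coding sequence, a number reached or passed by 15 of 19113 listed transcripts (0.0785%), while 13.1% of them hold at least 1. XPO5 and ZCCHC11 hold 1 each in coding sequence, TARBP2 holds 1 in its 3′ UTR, where 7.53% of transcripts hold at least 1, and the other 5 genes hold none, which says only that these letters are not in these transcript models. The DICER1 matches are shown in capitals with the bases before them and 1 after, because 3 of the 4 are followed by the A that often flanks let-7 sites, with the position of the match counted from the first base of the GENCODE 29 transcript.
DICER1, 2873 to 2879: tcagcatactgtgttCTACCTCt
DICER1, 3879 to 3885: tacccgtgcaaccaaCTACCTCa
DICER1, 3987 to 3993: gaaatgctaacaaatCTACCTCa
DICER1, 5377 to 5383: agatgcgattttggaCTACCTCa
The matches in the other genes are in XPO5 from 2974, in ZCCHC11 from 2757 and in TARBP2 from 1687, and none of these is followed by an A.
XPO5: cggacctcttttcacCTACCTCc
ZCCHC11: gcaccgacacatctgCTACCTCt
TARBP2: ctgtgggtgccatctCTACCTCt
Measured genes were grouped by such matches in coding sequence, leaving out the 3′ UTR and without regard to coding length. Median mRNA ratios were 0.01 with none (8462 genes), 0.02 with 1 (1204 genes) and 0.07 with at least 2 (178 genes). Median translational efficiency ratios were 0.00 (6281 genes), -0.05 (845 genes) and -0.10 (126 genes) in that order. Their quartiles overlapped, at -0.32 to 0.36, -0.39 to 0.27 and -0.37 to 0.21. Mature let-7 levels were not measured, and repression through the matches was not tested.

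The rest of the pathway was read from 5 lists of 60 genes, of which 56 are in the table. AGO1, AGO2, PAPD7 and ELAVL1 were not found by symbol. In mRNA 53 were measured, 1 of them at least 1.5-fold higher and 3 lower; in footprints 49 were measured, 6 higher and 5 lower; and in translational efficiency 5 of 49 were higher and 2 lower. The shares past 1.5-fold in either direction were 7.55%, 22.4% and 14.3%, each below the 21.0%, 28.99% and 26.3% of all measured genes. The share of all genes falls with count depth. At a minimum of 200 counts, 792 of 5815 genes were past it in mRNA, 569 of 2977 in footprints and 390 of 2906 in translational efficiency. The lists were not compared with genes of like counts.

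Among 11 cofactors of the DROSHA step the mRNA median was 0.08, against 0.01 for all genes, and none passed 1.5-fold (10.5% of all genes were higher and 10.5% lower). In footprints 1 was higher and 1 lower (15.0% and 14.0% of all genes). The RNA helicase DDX5 was 1.56-fold higher in footprints (2304 counts in the knockout-labelled and 1222 in the OE-labelled library), with an mRNA ratio of 0.32. Its paralogue DDX17 was at -0.53 in footprints and 0.21 in mRNA, a translational efficiency ratio of -0.74, and SYNCRIP was at -0.63 in footprints. The paralogous helicases thus had ratios of opposite sign in footprints. None of the 6 export genes, RAN and its cofactors among them, passed 1.5-fold in any ratio (10.5% to 15.0% of all genes did, by ratio and direction).

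In the Argonaute and silencing list 11 genes were measured in mRNA and 8 in footprints. AGO1 and AGO2 were not found by symbol, so nothing is shown for them. TNRC6B, a GW182-family scaffold of the silencing complex, was 2.48-fold higher in footprints (88 and 29 counts; ratio 1.31, 0.71 to 1.98). Its mRNA ratio was 0.15. TNRC6B reached the footprint minimum only through the knockout-labelled library, which favours a large ratio. AGO3 was at -0.64 in translational efficiency (-1.16 to -0.13). Of 17 other tailing enzymes and nucleases none passed 1.5-fold in mRNA (10.5% of all genes each way), and of 16 measured in footprints 3 were higher and 2 lower (15.0% and 14.0% of all genes). USB1 and ERI1, both 3′ exonucleases of small RNAs, were 2.57-fold and 2.32-fold higher in footprints. USB1 (79 and 25 counts; ratio 1.36, 0.72 to 2.09) also reached the minimum only through the knockout-labelled library. ERI1 had 257 and 91 counts (ratio 1.22, 0.87 to 1.58). MTPAP, the mitochondrial poly(A) polymerase, had a translational efficiency ratio of 1.05. The non-canonical poly(A) polymerase PAPD5 was at -0.78 in footprints. DIS3L, the cytoplasmic exosome nuclease and paralogue of DIS3L2, was at -0.61 in footprints (-1.11 to -0.13), close to the -0.61 of DIS3L2. In mRNA the paralogues were further apart, with DIS3L at -0.30 (-0.62 to 0.02) and DIS3L2 at -1.11.

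Among 8 measured RNA-binding regulators of let-7, IGF2BP1 was past 1.5-fold higher in mRNA and LIN28B, MSI2 and IGF2BP3 past it lower (10.5% of all genes each way); IGF2BP1 and LIN28B are also the genes that the labels name as altered. MSI2, an RNA-binding protein, was at -0.97 in mRNA and -0.88 in footprints. IGF2BP3, the paralogue of IGF2BP1, was 2.01-fold lower in mRNA and 1.20-fold lower in footprints.

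**Figure D5:**
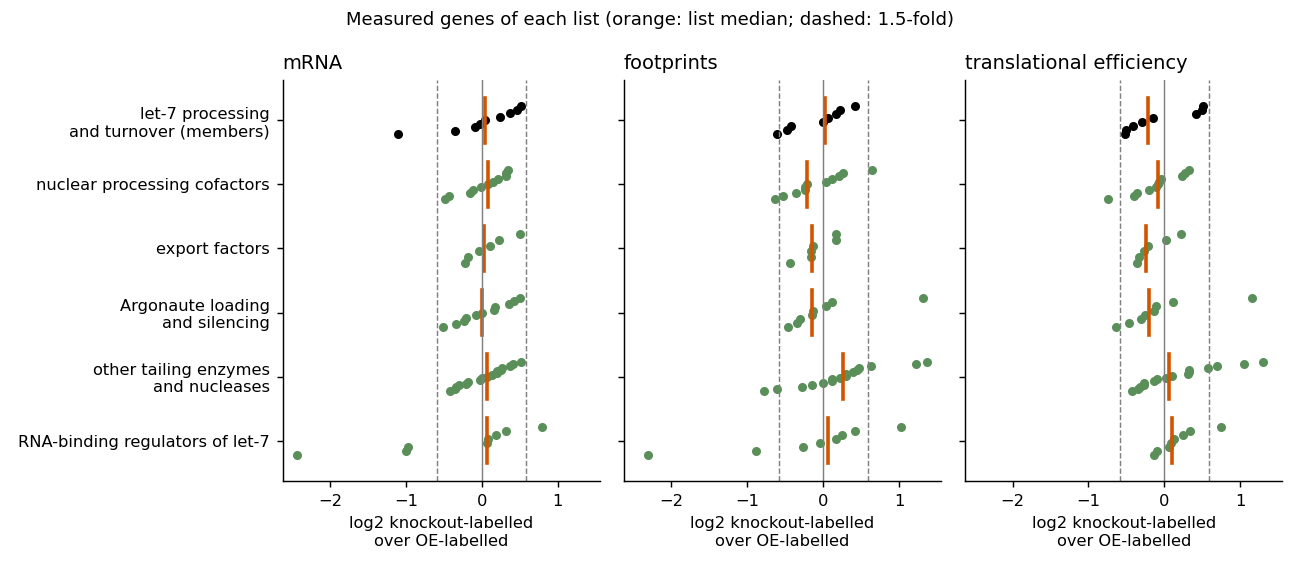
The log2 ratio of the knockout-labelled over the OE-labelled line for each measured gene of the 9 processing and turnover genes and of the 5 other pathway lists in mRNA, footprints and translational efficiency, with the median of each list and lines at 0 and 1.5-fold. Medians of the 5 lists lie between -0.24 and 0.26, and LIN28B (-2.43 in mRNA) is the lowest point.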

How the data were processed

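Ribosome footprints and fragmented RNA of 2 lines were measured in 4 libraries. Size selection kept footprints between 18 and 34 nt and RNA between 18 and 50 nt, and both linkers held random identifiers (4 and 5 nt), per the labels' protocols. The files give raw counts, 1 whole number for each gene, as deposited by the authors. The tools cutadapt 1.10, Bowtie 1.1.2 and HISAT2 2.1.0 and the build GRCh38 come from the submitters' processing notes, which state no role for them. Not given in the sources used here are the counter, its annotation, strand use, duplicate handling and the transcript part counted.

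For ratios between the lines and CPM of single genes, counts were scaled within each assay by TMM factors (edgeR 4.0.16, R 4.3.3). A gene was measured with a mean of at least 50 counts over both libraries of an assay (of each assay for translational efficiency). Ratios took 0.5 added to each count and exact conditional binomial (Clopper-Pearson) 95% intervals; translational efficiency and within-line ratios took Wald intervals. No count model was fitted, because 1 library per line and assay leaves no replicate. A count of 3 is the floor of a library, with CPM here from total counts. It is 0.920 and 0.440 CPM in the knockout-labelled footprint and RNA libraries and 1.10 and 0.553 CPM in the OE-labelled ones.

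Coordinates, lengths and matches come from the listed transcripts in GENCODE 29 (19176 of 19192 found), and microRNA sequences from RefSeq (GRCh38.p14). All 9 genes were described whatever their values, with IGF2BP1 and LIN28B as the check of the labels. From each pathway list, genes at or past 1.5-fold in any ratio were named, at most 6 a list. The 9 genes and the lists were chosen with earlier results of these data known. The ratio steps were tested on simulated counts. As alternatives, scaling used size factors (DESeq2 1.42.0), totals (also leaving out mitochondrially encoded genes) or the upper quartile, with 5 added to each count, other fold and count thresholds, and ratios relative to the 40 nearest genes as further choices. Scripts ran under Python 3.11.15 with scipy 1.17.1, numpy 2.4.6, matplotlib 3.10.9 and pandas 2.3.3.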

Additional observations from a re-analysis of the deposited data

How the results depend on the processing

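No paired analysis was possible because each line and assay had 1 library. Of the 9 genes, 1 was past 1.5-fold in mRNA (2 with total counts, with or without mitochondrially encoded genes; 5 at a lower fold threshold; 0 at a minimum of 200 counts). In footprints 1 was past it (0 with upper-quartile scaling, 0 at 2-fold, 4 at the lower fold, 0 at a minimum of 200), and in translational efficiency 0 (2 with total counts, with or without mitochondrially encoded genes; 6 at the lower fold). Over all genes 2074 were past 1.5-fold in mRNA, 2123 in footprints and 1911 in translational efficiency. At 2-fold these were 639, 666 and 526, at the lower fold 4575, 4004 and 3787, at a minimum of 10 counts 3392, 4115 and 3981, at 200 counts 792, 569 and 390, and with no minimum 6162, 6443 and 6082. Below the median gene in footprints over RNA were 5 of 8 in the knockout-labelled and 6 of 8 in the OE-labelled line, at a minimum of 200 counts 2 of 3 in each, and with lengths adjusted for 6 of 8 and 7 of 8. Of 25 ratios of single genes under each of 6 settings, those outside their interval were the DICER1 mRNA ratio with total counts, with or without mitochondrially encoded genes (0.64 in each), and relative to neighbours the DICER1 mRNA (0.26) and footprint (-0.22) and the XPO5 footprint (-0.22) and translational efficiency (-0.56) ratios. The sign changed for the DICER1 footprint ratio under both total counts and the upper quartile (0.02 in each), for KHSRP (0.10) and ZCCHC11 (0.03 and 0.02) mRNA under total counts, and for the XPO5 footprint ratio relative to neighbours. The causes were not tested. Depth limits the footprint ratios of DGCR8, TARBP2, ZCCHC11 and DIS3L2 most.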
